A study of Mus musculus with 3 samples.

Results

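The 9 genes described here, Npas4, Arc, Homer1, Nptx2, Nrn1, Rgs2, Ptgs2, Pcsk1 and Inhba, are effectors that neurons regulate with synaptic activity. They were chosen by gene symbol, and all 9 were present among the 24054 genes of the deposited table. Most encode proteins of the synapse or secreted factors that reach it, while Npas4 encodes a transcription factor and Ptgs2 an enzyme of lipid signalling. RNA came from primary cortical neurons of embryonic day 17 C57BL/6 mice, a culture of postmitotic neurons with some glia, after 7 days in culture. There were 3 groups with 1 library each: neurons in 0.2% oxygen for 7 hours with 5 nM T3 (triiodothyronine, the active thyroid hormone), neurons in 0.2% oxygen for 7 hours without T3, and neurons in 21% oxygen as control. They are called hypoxia with T3, hypoxia and control below. No T3 concentration is given for control, so hypoxia and control may differ in more than oxygen. The labels do not say whether the libraries came from separate preparations of neurons.

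Calcium entry through synaptic receptors and voltage-gated channels activates kinases and the transcription factors CREB, MEF2 and SRF at short genes held ready for induction. A first wave of transcription factors follows within minutes, and together with the calcium signal it drives effector genes that change synapses. Some effectors weaken or strengthen excitatory synapses, others recruit inhibition, and others are secreted to neighbouring cells. Several of the same genes are also known to respond to cell stress.

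The libraries held 22533574 reads for hypoxia with T3, 17118865 for hypoxia and 18081904 for control. Levels are CPM, read counts normalised for the size of the library, in which 1 read stood for 0.0425 CPM in hypoxia with T3, 0.0552 CPM in hypoxia and 0.0463 CPM in control. Folds are ratios of CPM with an exact 95% Clopper-Pearson interval on the reads, which covers counting error only. No group had a replicate, so no difference below was tested against biological spread and no p-value is given. A gene counted as higher or lower when it was at least 2-fold apart after 1 CPM was added, out of the 12692 genes whose average over the 3 libraries reached 1 CPM. Log2 ratios, and the ranks drawn from them, are also on CPM + 1, unlike the folds. All 9 members had such an average, although Ptgs2 reached it only through the hypoxic libraries.

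The cultures carried neuronal markers throughout. The 8 general neuron markers summed to 5429 CPM in hypoxia with T3, 5495 CPM in hypoxia and 5572 CPM in control, but they did not move together. Tubb3, a neuronal tubulin, was at 739 CPM in hypoxia with T3, 873 CPM in hypoxia and 1771 CPM in control, while the other 7 were above control in both hypoxic libraries, such as Stmn2 at 1793 CPM in hypoxia with T3, 1810 CPM in hypoxia and 1334 CPM in control. The 6 inhibitory neuron markers summed to 438 CPM in hypoxia with T3, 462 CPM in hypoxia and 339 CPM in control, and the 6 of the oligodendrocyte lineage to 190.0 CPM in hypoxia with T3, 188 CPM in hypoxia and 325 CPM in control. The 6 microglial markers, of which Tmem119 had 0 reads in both hypoxic libraries, summed to 1.79 CPM in hypoxia with T3, 1.55 CPM in hypoxia and 1.58 CPM in control, and the 5 of endothelium to 1.49 CPM in hypoxia with T3, 1.88 CPM in hypoxia and 1.67 CPM in control. Astrocyte markers, also 6, summed to 468 CPM in hypoxia with T3, 444 CPM in hypoxia and 449.8 CPM in control, and the 5 of fibroblasts, mostly Dcn, to 12.7 CPM in hypoxia with T3, 12.3 CPM in hypoxia and 8.99 CPM in control. The part of these differences in the results below was not tested. In bulk RNA, fewer cells of a type and less RNA per cell cannot be told apart.

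**Figure D1:**
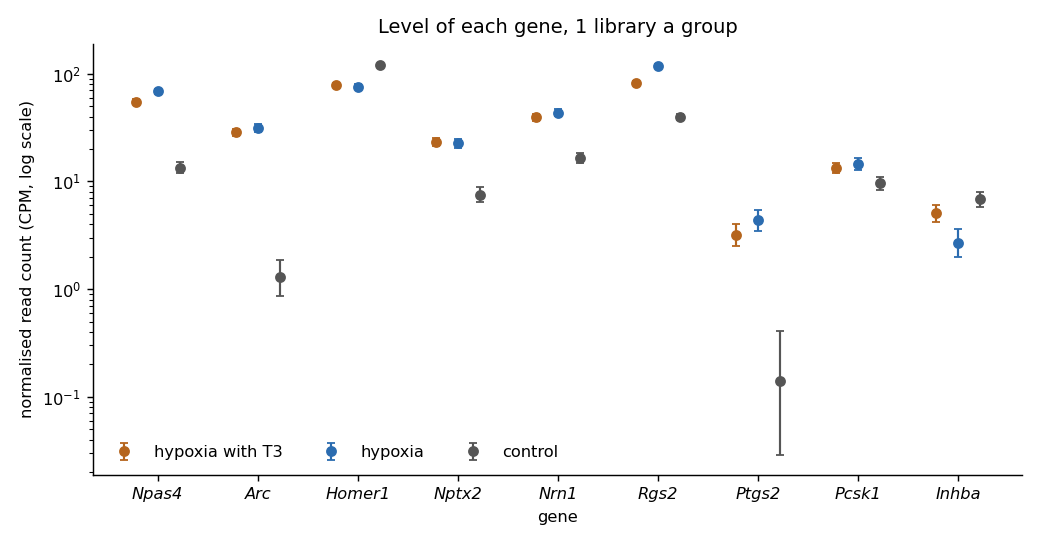
Level of each of the 9 genes (x axis) in CPM on a log scale (y axis); points are single libraries of hypoxia with T3, hypoxia and control, and bars are exact 95% Poisson intervals that cover counting error only. Both hypoxic points lie above the control point for 7 genes and below it for Homer1 and Inhba; Ptgs2 was at 3.19 CPM in hypoxia with T3, 4.36 CPM in hypoxia and 0.139 CPM in control.

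Npas4 is an activity-induced transcription factor of the bHLH-PAS family that promotes inhibitory synapses onto excitatory neurons. It was at 54.9 CPM in hypoxia with T3, 68.9 CPM in hypoxia and 13.4 CPM in control. Both hypoxic libraries were well above control, and hypoxia was 5.12-fold higher than control (interval 4.51 to 5.84). The library with T3 was 1.25-fold lower than hypoxia alone (1.16 to 1.36). The gene (chromosome 19, 4984355 to 4990316, minus strand, mm10) spans 5.96 kb.

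Arc, which binds the endocytic machinery and removes AMPA receptors from the postsynaptic membrane, had the widest separation from control among the members with more than 3 reads in every library. It had 671 reads in hypoxia with T3, 564 in hypoxia and 28 in control, or 28.5, 31.2 and 1.30 CPM. Hypoxia over control was 24-fold (16.4 to 36.5). On CPM + 1 it was 14-fold, and only 9 of the 12692 genes compared had a higher log2 ratio on that scale. Arc lies on chromosome 15 (74669083 to 74672570, minus strand) and spans 3.49 kb. Between the hypoxic libraries the ratio of T3 over hypoxia was 0.916 (0.818 to 1.03), too close to 1 to detect with these reads.

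Homer1 encodes a postsynaptic scaffold that links metabotropic glutamate receptors to Shank and to the inositol trisphosphate receptor, and its short form Homer1a is the activity-induced product. Homer1 went against most of the set, with 78.9 CPM in hypoxia with T3, 75.8 CPM in hypoxia and 119.6 CPM in control. Hypoxia was 1.58-fold lower than control (1.48 to 1.68), short of the 2-fold rule. The gene (chromosome 13, 93299635 to 93405129, plus strand) spans 105 kb and has 12 annotated transcripts, and the deposited value sums all forms, so that the short and long products were not separated. T3 over hypoxia was 1.04 (0.970 to 1.12).

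Nptx2 (also called Narp), a secreted pentraxin that clusters AMPA receptors from outside the cell, was at 23.2 CPM in hypoxia with T3, 22.6 CPM in hypoxia and 7.55 CPM in control. Both hypoxic libraries stood close together, and hypoxia was 2.99-fold higher than control (2.49 to 3.61). Nrn1 (neuritin, first described as CPG15), a membrane-anchored factor that promotes neurite growth and synapse maturation, was at 39.2 CPM in hypoxia with T3, 43.4 CPM in hypoxia and 16.6 CPM in control. Hypoxia was 2.61-fold higher than control for Nrn1 (2.30 to 2.96), much as for Nptx2, whose interval overlaps. Nptx2 lies on chromosome 5 (144545902 to 144557478, plus strand) and Nrn1 on chromosome 13 (36725361 to 36735131, minus strand). Exons of Fars2, a mitochondrial tRNA synthetase gene on the opposite strand, overlap 501 bases of Nrn1 exons. Fars2 was at 3.78 CPM in hypoxia with T3, 3.42 CPM in hypoxia and 4.63 CPM in control, from 89, 62 and 100 reads. Its part in the Nrn1 values was not tested. The labels do not say whether reads were counted by strand.

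Rgs2 encodes a GTPase-activating protein that ends signalling of Gq-coupled receptors. It had 1920 reads in hypoxia with T3, 2122 in hypoxia and 856 in control, or 81.6, 117 and 39.7 CPM. All 3 libraries were apart beyond counting error, with hypoxia 2.95-fold higher than control (2.73 to 3.20) and hypoxia with T3 in between. Ptgs2, the inducible cyclooxygenase COX-2 that starts prostaglandin synthesis and is made by excitatory neurons after activity, had 75 reads in hypoxia with T3, 79 reads in hypoxia and 3 reads in control. With 3.19 CPM in hypoxia with T3, 4.36 CPM in hypoxia and 0.139 CPM in control, hypoxia over control was 31.4-fold with a wide counting interval of 10.4 to 155, since control held so few reads. Both genes lie on chromosome 1, Rgs2 at 143999338 to 144004161 (minus strand) and Ptgs2 at 150100031 to 150108227 (plus strand).

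Pcsk1 encodes the prohormone convertase PC1/3, which cuts neuropeptide and granin precursors in secretory granules. It was at 13.3 CPM in hypoxia with T3, 14.5 CPM in hypoxia and 9.59 CPM in control, so that hypoxia was 1.51-fold higher than control (1.25 to 1.82) and did not meet the 2-fold rule. Inhba encodes the beta A subunit of activin A, a secreted ligand of the TGF-beta family that is induced by synaptic NMDA receptor activity and is known to protect neurons. It had 119 reads in hypoxia with T3, 49 in hypoxia and 147 in control, or 5.06, 2.71 and 6.81 CPM. Hypoxia was the lowest of the 3 libraries, 2.52-fold lower than control (1.81 to 3.55), and hypoxia with T3 lay nearer to control. Both are on the plus strand of chromosome 13, Pcsk1 at 75089826 to 75134861 and Inhba at 16011851 to 16031621.

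**Figure D2:**
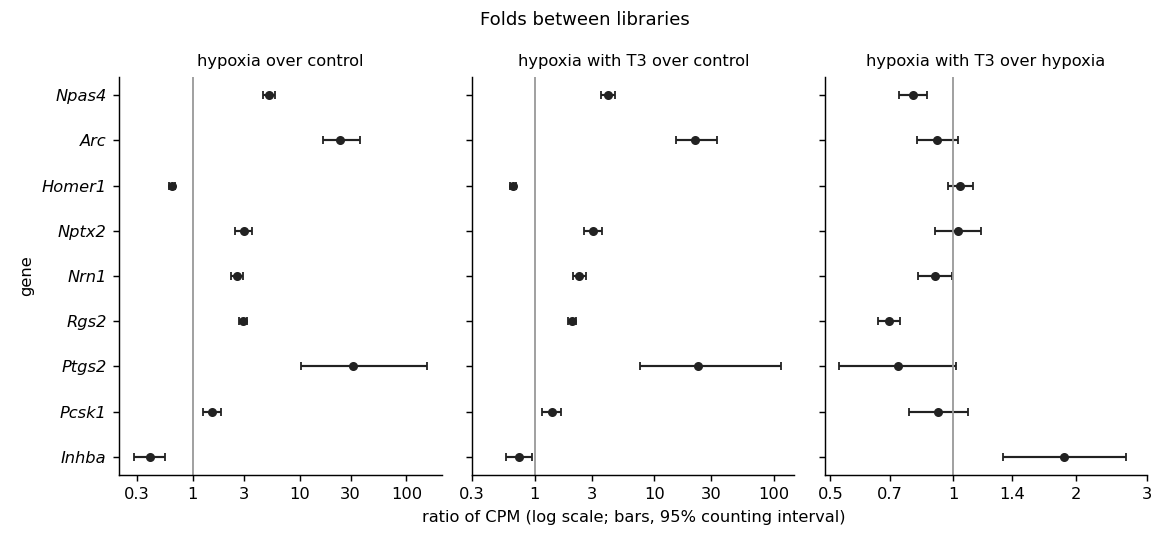
Ratio of CPM (x axis, log scale, with a narrower range in the right panel) for each gene (y axis) in hypoxia over control, hypoxia with T3 over control and hypoxia with T3 over hypoxia; points are ratios of single libraries and bars their 95% counting intervals. In the right panel the intervals of Npas4, Rgs2 and Nrn1 lie below 1 and that of Inhba above it.

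The upstream sequence of 4 of these genes is shown because each holds the CRE core before the start. Npas4 and Rgs2 were more than 2-fold higher in hypoxia, Pcsk1 was 1.51-fold higher and Homer1 was lower. Each line holds the 250 bases before the RefSeq transcription start (GRCm38.p6), 5′ to 3′ in the direction of the gene, with capitals for the CRE core TGACG, the full CRE TGACGTCA and the hypoxia response element cores ACGTG and GCGTG, on either strand.
Npas4 (chr19:4989972-4990221, minus strand): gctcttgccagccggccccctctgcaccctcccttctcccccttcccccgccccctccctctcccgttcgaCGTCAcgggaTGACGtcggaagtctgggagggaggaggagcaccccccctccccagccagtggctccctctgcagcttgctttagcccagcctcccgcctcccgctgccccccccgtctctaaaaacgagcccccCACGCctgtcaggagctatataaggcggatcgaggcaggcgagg
Rgs2 (chr1:144004150-144004399, minus strand): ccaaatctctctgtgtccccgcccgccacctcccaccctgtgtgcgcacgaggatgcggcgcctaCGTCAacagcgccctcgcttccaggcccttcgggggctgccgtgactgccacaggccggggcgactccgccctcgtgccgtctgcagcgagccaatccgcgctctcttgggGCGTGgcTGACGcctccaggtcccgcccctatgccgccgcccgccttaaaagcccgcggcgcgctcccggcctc
Pcsk1 (chr13:75089607-75089856, plus strand): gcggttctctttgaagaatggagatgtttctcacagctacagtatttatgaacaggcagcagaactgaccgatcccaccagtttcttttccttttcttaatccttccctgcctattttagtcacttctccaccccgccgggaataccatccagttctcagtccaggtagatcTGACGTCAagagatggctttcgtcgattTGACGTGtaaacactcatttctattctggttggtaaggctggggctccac
Homer1 (chr13:93303507-93303756, plus strand, the upstream of 2 starts): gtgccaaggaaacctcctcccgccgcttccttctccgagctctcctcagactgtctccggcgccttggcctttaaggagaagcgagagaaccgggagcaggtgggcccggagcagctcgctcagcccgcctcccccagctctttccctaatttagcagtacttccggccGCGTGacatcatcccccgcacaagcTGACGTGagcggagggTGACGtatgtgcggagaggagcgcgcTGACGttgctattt

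The RefSeq table held windows of 300 bases, from 250 before to 50 after a start, for 6 of the 9 genes, with 2 windows for Homer1 and so 7 in all, and both strands were searched. Arc, Nptx2 and Nrn1 had no window, so the counts below do not cover their promoters. The CRE core, to which CREB binds, occurred in 5 of the 7 windows and in 20.8% of the 32851 windows in the table. It was found for Npas4, Rgs2, Pcsk1, Ptgs2 and the upstream start of Homer1. In Homer1 it occurred 56, 40 and 14 bases before the start, and in Ptgs2 13 bases after it. The full CRE, which contains the CRE core on both strands, occurred only in Pcsk1, 78 bases before the start, and in 1.79% of all windows. The core ACGTG, which overlaps the CRE core in TGACGTG, occurred in 4 of the 7 windows and in 19.6% of all, and GCGTG in 5 of the 7 and in 32.4% of all. The AP-1 site TGANTCA and the CArG box of SRF occurred in none of the 7, against 7.81% and 1.63% of all windows. These are matches of letters, and their part in the levels was not tested. The CRE core matched 3 times in Homer1 and 3 times in Pcsk1, where 2 of the matches are those within the full CRE. The windows hold only 300 bases around a start, and the Homer1 value sums all its forms. These counts of matches therefore cannot be read against the levels.

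Set against control, hypoxia had 6 of the 9 members at least 2-fold higher (Arc, Npas4, Ptgs2, Rgs2, Nptx2 and Nrn1), against a background of 1.99% of the genes compared. Inhba was the 1 member at least 2-fold lower, against 4.92% of genes. The log2 ratios of the 9 ran between −1.08 for Inhba and 3.81 for Arc, with a median of 1.46, beside a median of 0.05 over all genes compared. At most 135 genes had a higher log2 ratio than one of the 6, the number for Nrn1, while Pcsk1 had 1306 genes above it. Every member's interval lay off 1, but so did the intervals of most genes, 37.8% above and 30% below. The members were chosen with earlier results of these data known, so the count describes them and does not support a statement on activity genes in general. Under a looser rule of 1.5-fold, the members higher were the same 6, against 8.46% of genes, and Homer1 joined Inhba as lower, against 13.8%. The calls of Ptgs2 and Inhba ended when 5 CPM was added in place of 1, and both genes, with means of 2.56 CPM for Ptgs2 and 4.86 CPM for Inhba, dropped out under a minimum mean of 5 CPM, which left 5 members higher and 0 lower.

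**Figure D3:**
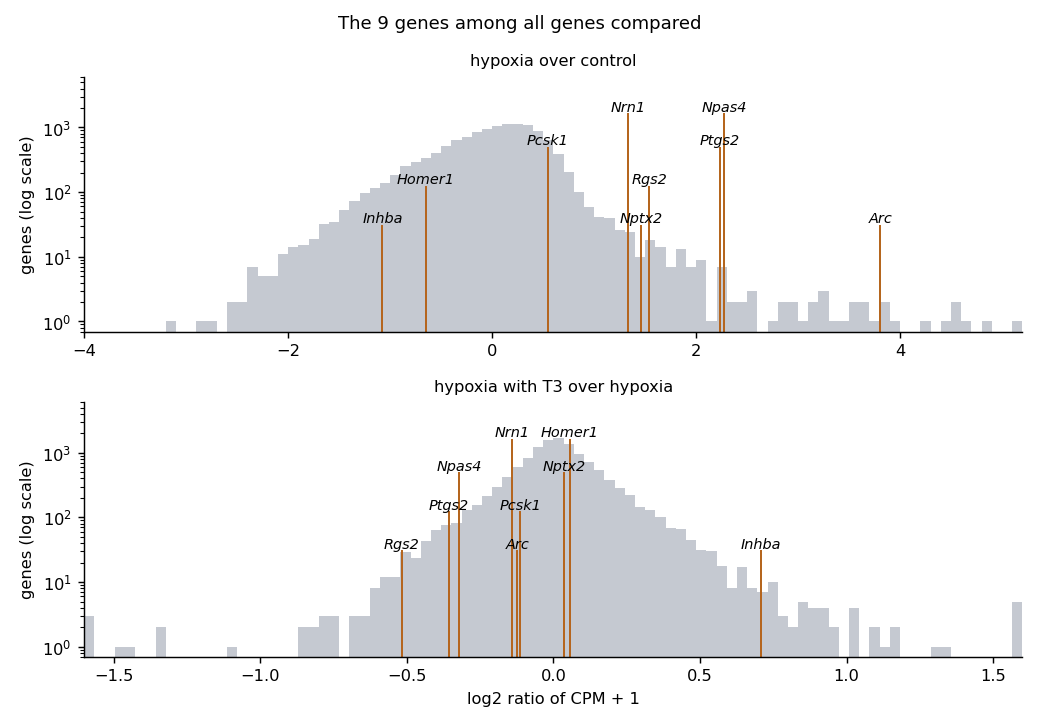
Histograms of the log2 ratio of CPM + 1 (x axis) over the 12692 genes compared (y axis, number of genes on a log scale), for hypoxia over control and for hypoxia with T3 over hypoxia, with the 9 genes marked; values past the ends of an axis are drawn in its last bin. In the upper panel 6 of the 9 stand in the thin right tail, and in the lower panel most lie in the body, with Rgs2 towards the left and Inhba towards the right.

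Gene span went with this ratio across the genes compared, and the members differed in span. Of 12098 genes with a span by symbol in GENCODE M21, the 2818 under 10 kb had a median log2 ratio of 0.33, and 5.18% were at least 2-fold higher in hypoxia. Arc, Npas4, Rgs2, Ptgs2 and Nrn1 belong to that class, and all 5 were at least 2-fold higher. Among the 3815 genes of 10 to 30 kb, the class of Nptx2 and Inhba, 1.97% were higher and 1.34% lower. Pcsk1, at 45.0 kb and short of the 2-fold rule, is in the class of 30 to 100 kb, in which 0.427% were higher and 5.21% lower and the median was −0.12. Homer1, the longest member, was in the class of at least 100 kb, which had a median of −0.36, with 17.8% of its 1952 genes lower and 0% higher. The log2 ratio of Homer1, −0.65, and that of Inhba lay below the median of their class, and those of the other 7 above it.

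**Figure D4:**
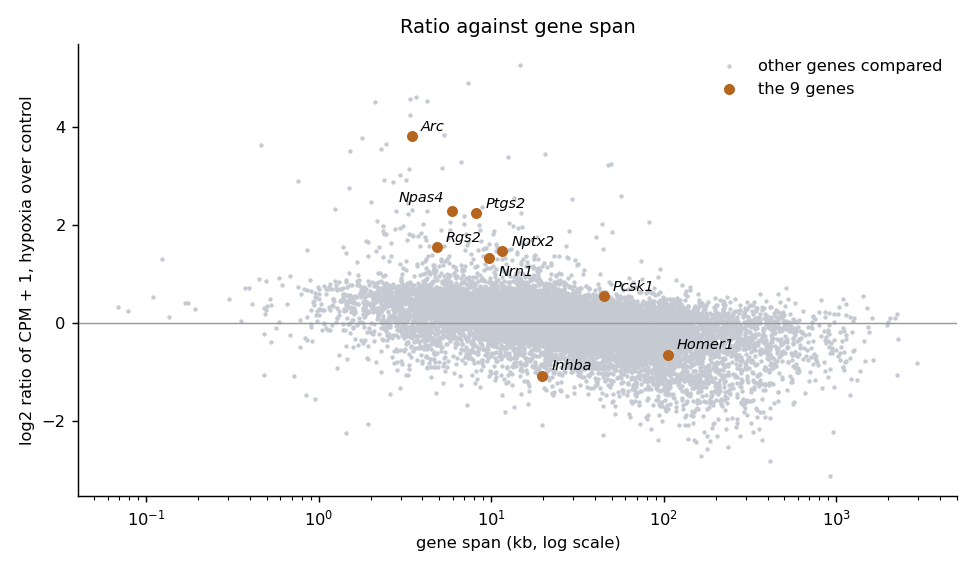
Log2 ratio of CPM + 1 in hypoxia over control (y axis) against gene span in kb (x axis, log scale) for genes compared that have an annotated span (grey) and for the 9 genes (coloured and named). Arc, Npas4, Ptgs2, Rgs2, Nptx2 and Nrn1 lie towards the upper edge of the cloud at their span, Arc the highest of them, and Inhba near its lower edge.

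To see what the hormone does at low oxygen, hypoxia with T3 was set against hypoxia alone. Here 0 of the 9 members were 2-fold apart in either direction, against a background of 0.126% of genes higher and 0.063% lower. Rgs2 was at 81.6 CPM in hypoxia with T3 against 117 CPM in hypoxia, 1.44-fold lower (1.35 to 1.53), and only 62 of 12692 genes had a lower log2 ratio. Inhba was at 5.06 CPM in hypoxia with T3 against 2.71 CPM in hypoxia, 1.87-fold higher (1.33 to 2.66), and 49 genes had a higher one. Under a rule of 1.5-fold on CPM + 1, Inhba was the 1 member called higher, against 0.717% of genes, and 0 were called lower, against 0.276%. The Inhba value rests on 49 reads in hypoxia, and that library enters both its ratios, so a low value there makes one lower and the other higher.

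For Npas4 and Nrn1 the intervals also lay below 1, at 1.25-fold lower (1.16 to 1.36) and 1.11-fold lower (1.0 to 1.22). In all, 3 of the 9 had an interval wholly below 1, against 6.71% of genes, and 1 wholly above it, against 11.1%. Ptgs2, with 75 reads in hypoxia with T3 against 79 in hypoxia, had a ratio of 0.731 (0.526 to 1.02), which at this depth cannot be told from 1. The ratio of Pcsk1 was 0.920 (0.778 to 1.09) and that of Nptx2 1.03 (0.903 to 1.17), neither detectable. The median log2 ratio of the 9 was −0.12, beside 0.01 over all genes.

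Hypoxia with T3 against control shares the control library with the first comparison, so the values are given side by side and not as further support. The same 6 members were at least 2-fold higher, against 2.06% of genes, and none was at least 2-fold lower, against 4.59%. Arc was 22-fold higher with T3 over control (15.1 to 33.3) and 24-fold in hypoxia over control. In the same order of comparisons, Ptgs2 was 22.9-fold (7.55 to 114) and 31.4-fold higher, Npas4 4.09-fold (3.60 to 4.66) and 5.12-fold, Nptx2 3.07-fold (2.58 to 3.68) and 2.99-fold, and Nrn1 2.36-fold (2.09 to 2.67) and 2.61-fold. Rgs2 was only 2.06-fold higher with T3 over control (1.90 to 2.23), and its call ended under either other scaling, at 1.80-fold with equal library sums and 1.95-fold with median-of-ratios factors. Homer1 was 1.51-fold lower (1.43 to 1.61) and Inhba 1.35-fold lower (1.05 to 1.73). Under the 1.5-fold rule the same 6 were higher, against 8.73% of genes, and Homer1 was lower, against 13.1%. The intervals of 7 members lay wholly above 1, against 40% of genes, and those of Homer1 and Inhba wholly below it, against 29.6%.

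Levels were compared between genes per kb of exon, as CPM divided by the merged exonic length in GENCODE M21. In hypoxia with T3 the order of levels was Rgs2 at 22.5, Nrn1 at 17.5, Npas4 at 13.3, Arc at 9.33, Nptx2 at 9.16, Homer1 at 6.59, Pcsk1 at 2.38, Inhba at 0.792 and Ptgs2 at 0.696 CPM per kb. Hypoxia had the same order but for the last pair, with Rgs2 at 32.3, Arc at 10.2, Ptgs2 at 0.953 and Inhba at 0.424 CPM per kb. In control the order began with Rgs2 at 10.9 and Homer1 at 9.98, whose intervals overlapped, and ended with Arc at 0.424 and Ptgs2 at 0.0304 CPM per kb. Arc and Nptx2 overlapped in both hypoxic libraries, Inhba and Ptgs2 in hypoxia with T3 and Npas4 and Nptx2 in control, and all other neighbours were apart beyond counting error. Arc thus took place 4 of 9 in both hypoxic libraries and place 8 in control. Homer1 has the longest merged exons, 12 kb, which sum several forms and lower its value on this scale.

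Genes with a pattern most like each member were sought by the distance between their 2 log2 ratios over control, across 9967 genes averaging 5 CPM or more, which rests on 3 libraries. Nearest to Arc were Gadd45g, at 57.5 CPM in hypoxia with T3, 63.9 CPM in hypoxia and 3.75 CPM in control (distance 0.07), and Cyr61, at 53.9 CPM in hypoxia with T3, 65.3 CPM in hypoxia and 3.34 CPM in control (0.13). Npas4 lay nearest to Vgf, at 464 CPM in hypoxia with T3, 505 CPM in hypoxia and 111 CPM in control (0.14). Nptx2 lay nearest to Dusp4 (0.03) and Nrn1 to Ccnl1 and Srf (0.03 each). For Inhba the nearest gene was Sorl1, at 14.5 CPM in hypoxia with T3, 8.17 CPM in hypoxia and 17.8 CPM in control (0.09). No gene came within 0.1 of Npas4, Rgs2 or Ptgs2, while 208 did for Homer1 and 501 for Pcsk1, so that the patterns of Homer1 and Pcsk1 are common in these libraries. Few genes lay as far out as the first 3, with 38, 103 and 40 genes above them in hypoxia over control. Ptgs2 and Inhba themselves averaged less than 5 CPM. The added 1 CPM brings Ptgs2 from 31.4-fold to 4.71-fold, so its place here depends on that value.

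The wider activity programme was described by lists. The shares and medians of all genes set beside the lists do not allow for gene span, which went with hypoxia over control. The part of span in the list values was not tested. Of 20 activity-induced transcription factors, 14 were at least 2-fold higher in hypoxia over control, against 1.99% of genes, and 0 lower, against 4.92%. Their median log2 ratio was 3.19, beside 1.46 for the 9 members and 0.05 for all genes. Between the hypoxic libraries 1 of these 20, Atf3 (named after its values were seen), had a log2 ratio above 0, against 54.1% of all genes. The median of the 20 was −0.24. Of 25 other activity-regulated effectors, 21 were compared, with a median of 0.88 in hypoxia over control. Of the 21, 8 passed the 2-fold rule upwards, against 1.99% of genes, and 0 downwards, against 4.92%. Among them Arl4d, a small GTPase of the ARF family, had 60.1 CPM in hypoxia against 4.22 CPM in control, 14.3-fold higher (11.5 to 17.9). Vgf, a precursor of secreted peptides that PC1/3 cuts, was 4.55-fold higher (4.35 to 4.76), and Plk2, a kinase that weakens synapses after prolonged activity, 3.75-fold higher (3.60 to 3.91). Pcdh8 (arcadlin), an adhesion protein that takes part in the removal of AMPA receptors, was 2.61-fold higher, and the kinases Plk3 and Sik1 were 3.05-fold and 2.50-fold higher.

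Further lists held the genes of proteins that bind the members or act beside them. Of 73 such genes over all lists of partners and relatives, 63 were compared. In hypoxia over control, 2 of the 63 passed the 2-fold rule upwards, against 1.99% of all genes, and 3 downwards, against 4.92%. The lists overlap. Nptx1, which is 1 of these 2, and Rgs4 are also among the other effectors above, and Camk2b is among the upstream regulators described last. Between hypoxia with T3 and hypoxia, 0 of the 63 were 2-fold apart, against 0.126% of all genes higher and 0.063% lower. Of the 8 genes that work with Arc none was 2-fold apart in hypoxia over control, against 1.99% of all genes higher and 4.92% lower. Dlg4, the scaffold PSD-95, had 526 CPM in hypoxia against 359 CPM in control, 1.47-fold higher (1.42 to 1.51). Camk2b was 1.31-fold higher, and the AMPA receptor subunit Gria2 1.33-fold lower (1.29 to 1.37). Of the 7 partners and relatives of Npas4 compared, 0 were at least 2-fold higher and 2 lower, against 1.99% and 4.92% of genes. Npas3 was at 9.78 CPM in hypoxia against 26.1 CPM in control and Npas2 at 2.65 CPM in hypoxia against 7.42 CPM in control. Arnt2, the dimer partner of Npas4 in neurons, was at 471 CPM in hypoxia with T3, 474 CPM in hypoxia and 364 CPM in control, 1.30-fold higher in hypoxia over control (1.26 to 1.34).

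The 9 partners and relatives of Homer1 had a median log2 ratio of −0.33 in hypoxia over control. The median was 0.05 over all genes and −0.36 over genes of at least 100 kb, and the spans of these 9 were not compared. Of the 9, 2 were above 0, against 54.5% of genes. None was 2-fold apart, against 1.99% of genes higher and 4.92% lower. Shank1 was at 418 CPM in hypoxia against 368 CPM in control, Grm5, the receptor mGluR5, at 266 CPM in hypoxia against 286 CPM in control, and Shank3 at 146 CPM in both. Named after their values were seen, Homer2 was 1.39-fold lower (1.29 to 1.5) and Itpr1, the inositol trisphosphate receptor, 1.83-fold lower in hypoxia (1.70 to 1.99), with 73.4 CPM in hypoxia with T3 against 50.5 CPM in hypoxia. In the pentraxin group, Nptx1 was at 51.5 CPM in hypoxia with T3, 35.8 CPM in hypoxia and 16.4 CPM in control, 2.19-fold higher in hypoxia over control (1.92 to 2.50) and 1.44-fold higher with T3 over hypoxia (1.31 to 1.59). The pentraxin receptor Nptxr, which joins Nptx1 and Nptx2 at the synapse, was 1.56-fold higher in hypoxia (1.51 to 1.61), and the AMPA subunits Gria3 and Gria4 had ratios of 0.973 and 0.907.

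Among 8 relatives and G protein targets of Rgs2 compared, 1 was at least 2-fold higher in hypoxia over control, against 1.99% of genes. None was lower, against 4.92%. The higher gene, Rgs16, was at 10.8 CPM in hypoxia against 3.94 CPM in control. Rgs4 was at 207 CPM in hypoxia with T3, 272 CPM in hypoxia and 140.1 CPM in control, the same order of libraries as Rgs2, and 1.32-fold lower with T3 over hypoxia (1.27 to 1.37). Gnaq, the G protein on which Rgs2 acts, was 1.19-fold lower in hypoxia over control. In the prostaglandin pathway 5 of 11 genes reached a mean of 1 CPM. None was 2-fold apart, against 1.99% of genes higher and 4.92% lower. The synthase Ptges3 was at 152 CPM in hypoxia against 145 CPM in control. The synthase Ptges2 was at 35 CPM in hypoxia against 24.1 CPM in control, and the receptor Ptger1 at 34.0 CPM in hypoxia against 27.1 CPM in control. Ptgs1, the constitutive cyclooxygenase, named after its values were seen, stayed below that mean, at 0.0850 CPM in hypoxia with T3, 0.221 CPM in hypoxia and 0.139 CPM in control.

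In the activin pathway of Inhba, 11 genes were compared. In hypoxia over control 0 were at least 2-fold higher and 1 lower, against 1.99% and 4.92% of genes. Of the 11, 3 had a log2 ratio above 0, against 54.5% of all genes compared, and the median was −0.41. Acvr1c, the receptor ALK7, had 1.6 CPM in hypoxia against 6.72 CPM in control, 4.2-fold lower (2.80 to 6.49), and was the 1 gene past 2-fold. The receptor Acvr2a was 1.42-fold lower (1.35 to 1.5), the signal transducer Smad2 1.42-fold (1.32 to 1.53) and the receptor Acvr1b 1.16-fold lower. Named after its values were seen, Inhbb, the other main beta subunit of activin, was at 12 CPM in hypoxia with T3, 9.83 CPM in hypoxia and 17.4 CPM in control, the same order as Inhba. Of 11 genes of prohormone processing, none was 2-fold apart, against 1.99% of genes higher and 4.92% lower, and 6 were above 0, against 54.5%. Carboxypeptidase E (Cpe), which trims what Pcsk1 cuts, was 1.33-fold higher in hypoxia (1.30 to 1.36), the PC1/3 inhibitor Pcsk1n 1.55-fold higher (1.46 to 1.64) and the granin Chgb 1.31-fold higher (1.25 to 1.37). Pcsk2, the other neuronal convertase, named after its values were seen, was 1.44-fold lower (1.35 to 1.55), opposite to Pcsk1.

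**Figure D5:**
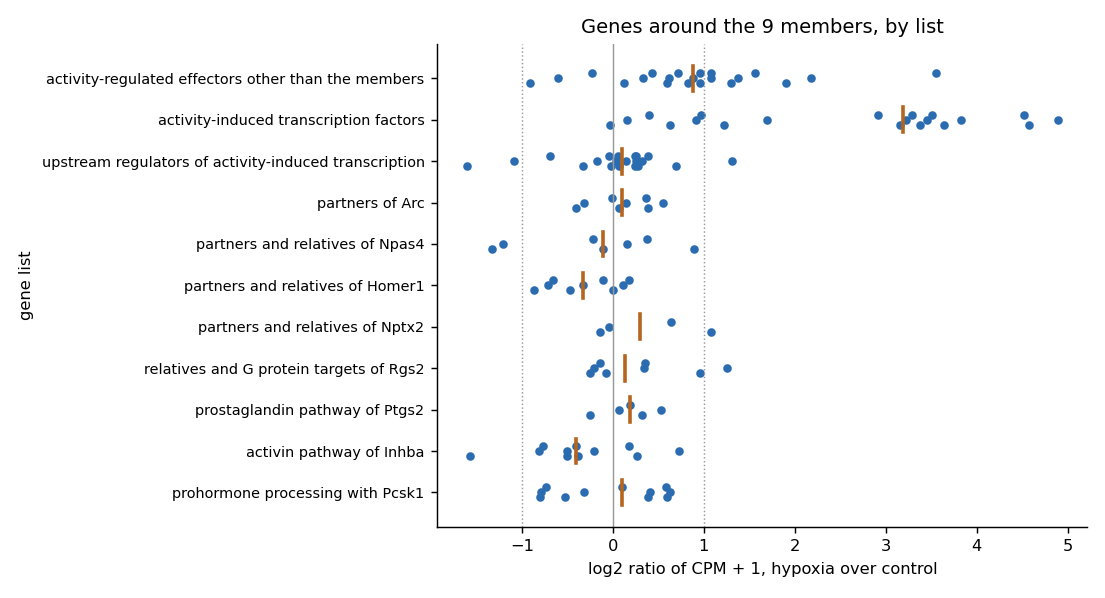
Log2 ratio of CPM + 1 in hypoxia over control (x axis) for the genes compared in each list (y axis); points are genes, short bars list medians and dotted lines the 2-fold rule. The transcription factors, with a median of 3.19, and the other effectors, at 0.88, lie to the right, while the partner lists centre between −0.41 and 0.30.

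In the authors' deposited table of hypoxia against control, the false discovery rate was below 0.05 for 85 of 13152 genes, in a test of 1 library against 1 that the labels do not name. Of the 9 members, Arc (fold 22.9, false discovery rate 1.17e-06) and Ptgs2 (28.9, 6.52e-05) were among them. Npas4 lay just outside in the authors' deposited table, with a fold of 4.91 and a rate of 0.0556, and Rgs2, Nptx2, Nrn1 and Inhba had rates between 0.496 and 0.700. In the authors' deposited table of hypoxia with T3 against control, 104 genes passed, Arc and Ptgs2 again among them, and Npas4 had a fold of 3.89 and a rate of 0.133.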

How the data were processed

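RNA was sequenced from 3 cultures, 1 library each, with a strand-specific KAPA kit per the labels' protocols. Per the submitters' processing notes the tools were RSEM 1.2.15, Bowtie2 2.1.0 and bcl2fastq 2.17 and the build mm10, with no roles given. The authors deposited CPM values, TMM-scaled per the file name. All of them were whole multiples, within 0.01, of the value of 1 read, so whole reads were recovered. The 2 deposited comparison tables hold, per the file headers, a signed fold, treated as a score and written as minus the inverse below 1, besides p-values and false discovery rates. Their signal columns, as deposited by the authors, are the CPM multiplied by a constant per library, and were not used.

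Log2 ratios were taken on CPM + 1. A count of 3 reads was the floor, equal to 0.128, 0.166 and 0.139 CPM in hypoxia with T3, hypoxia and control. Reads carried no molecular identifiers, so several may stem from 1 molecule, and intervals cover counting error only. The members, lists and rules were chosen with earlier results of these data known. The genes named by rule were the members, list genes at least 2-fold apart (up to 6 a list), up to 3 partner genes of highest mean a list and the 2 genes nearest a member. Other list genes are said to be named after their values were seen. Spans and exons came from GENCODE M21 (GRCm38, the assembly of mm10) and promoters from RefSeq. At most 0.634% of the 31-base words of any member occurred in transcripts of another gene. The procedure was tested on simulated data. Alternatives were other added values, minimum means, scalings and a 1.5-fold rule. Python 3.11.15, numpy 2.4.6, pandas 2.3.3 and scipy 1.17.1 were used.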

Additional observations from a re-analysis of the deposited data

How the results depend on the processing

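With 5 CPM added, the members lower in hypoxia over control numbered 0, and likewise under a minimum mean of 5 CPM; either setting left 5 higher, without Ptgs2. In hypoxia with T3 over control, Ptgs2 and Rgs2 lost their calls with 5 CPM added, and Ptgs2 was not compared under a minimum mean of 5 CPM. Under a 1.5-fold rule, 2 members were lower in hypoxia over control (Inhba and Homer1), 1 lower in hypoxia with T3 over control (Homer1) and 1 higher in hypoxia with T3 over hypoxia (Inhba). The other counts of members stayed within 1.5 times. Of the 27 member folds, 21 stayed within their counting interval under equal library sums and 27 under median-of-ratios factors, and no called member turned its direction. Equal sums moved the median of all genes to −0.10, against 0.05 as deposited, in hypoxia over control.

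Over all genes, hypoxia over control gave 155 higher and 286 lower with 5 CPM added, 974 lower with equal sums (192 higher), and 1074 higher and 1754 lower under 1.5-fold, against 252 and 624. For hypoxia with T3 over control these were 167 and 269, 920 lower (199 higher), and 1108 and 1663, against 262 and 582. For hypoxia with T3 over hypoxia, against 16 and 8, there were 44 and 18 with 0.1 CPM added, 8 and 1 with 5 CPM added, 3 lower under a minimum mean of 5 CPM, and 91 and 35 under 1.5-fold. No paired analysis was possible because each group has 1 library. Depth limits the members with few reads in a library: Ptgs2 had 3 in control, Arc 28 in control and Inhba 49 in hypoxia.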

Other observations

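A further list held 20 genes for regulators upstream of the activity programme. In hypoxia over control 1 was at least 2-fold higher, against 1.99% of genes, and 2 were lower, against 4.92%. With 20 genes these counts are too small to set apart from the shares. The median log2 ratio was 0.10, beside 0.05 over all genes. Srf, the factor that binds CArG boxes, was at 109 CPM in hypoxia with T3, 119 CPM in hypoxia and 47.4 CPM in control, 2.50-fold higher in hypoxia over control (2.32 to 2.70). Creb1, which binds the CRE, was at 24.6 CPM in hypoxia with T3, 19.3 CPM in hypoxia and 60.7 CPM in control, 3.15-fold lower in hypoxia over control (2.79 to 3.55), and Mef2a at 66.9 CPM in hypoxia with T3, 57.7 CPM in hypoxia and 124 CPM in control, 2.15-fold lower (2.0 to 2.31). With T3 over hypoxia, Creb1 was 1.28-fold higher (1.11 to 1.46). Bdnf, a secreted effector of the same programme, named after its values were seen, was at 15.8 CPM in hypoxia with T3, 18.9 CPM in hypoxia and 17.2 CPM in control, and its ratio of hypoxia over control, 1.1 (0.943 to 1.27), was not detectable at this depth.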
